A study of Homo sapiens with 18 samples.

Results

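The complement protease gene C1S and 8 further genes of the complement pathway (C1R, C3, CFB, CFI, CD46, CD55, CD59 and SERPING1) were followed in U2OS, an established human osteosarcoma line. The genes were taken by symbol from the table of gene counts and make up 9 of its 25296 genes. C1S was chosen by its measured level, because its response to cytarabine was the largest in the line carrying wild-type DNMT3A, so the values of C1S are given as a description with no test. The other members were listed as genes of the same pathway.

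The study compared the response to cytarabine of 3 U2OS lines. The EV line carried the empty retroviral vector MigR1, the WT line overexpressed wild-type DNMT3A, a DNA methyltransferase, and the MUT line overexpressed mutant DNMT3A. The series text and the sample labels name different substitutions for the mutant, so it is called mutant only. Cytarabine (Ara-C) mimics cytidine, is incorporated during DNA synthesis and stalls replication. Treated cells of each line received 10 µM cytarabine for 24 h. Untreated cells of each line are called a vehicle control in the series text and untreated in the labels. They are listed at 0 h, and a part of culture time in the responses was not tested. Each of the 6 groups had 3 biological replicates, and all cells shared the U2OS background with its own DNMT3A gene. The p-values measure the spread between these cultures of 1 line each. Whether the overexpression lines were pools or single clones is not stated in the sources used here.

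Complement is a cascade of plasma proteases and membrane regulators. In the classical pathway, C1q bound to a target activates the protease C1r, which cleaves C1s, and C1s cleaves C4 and C2 to form the enzyme that splits C3. The alternative pathway splits C3 with factor B, and host cells are shielded by inhibitors in plasma and on the membrane. Liver is the main source of the plasma proteins, while fibroblasts and other mesenchymal cells also make C1r, C1s and C1 inhibitor.

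Library totals ran from 15.39 to 21.85 M estimated counts. DNMT3A followed the labels, with 26.9, 27.5 and 26.2 CPM (counts per 1e+06 counts of the scaled library) in untreated EV, 131, 129 and 139 CPM in untreated WT and 500, 615 and 254 CPM in untreated MUT. The spread among the untreated MUT libraries was larger than among the replicates of any other group. Their chi-square per degree of freedom over genes reached 46.8. Calls of members that were lost without 1 untreated MUT library are given with and without it. For genes other than the members, values without a library are not given. Of 10 mesenchymal and osteoblast-lineage markers, 9 were in the table and all 9 had a mean above 1 CPM. The summed level of these markers was 3825 to 4295 CPM in untreated and 2889 to 3348 CPM in treated libraries, and their part in the results was not tested. Of 8 hepatocyte markers 4 were in the table, with sums of 24.2 to 36.8 CPM untreated and 37.7 to 49.7 CPM treated, nearly all from SERPINA1, while ALB reached at most 0.747 CPM and APOA1 0.571 CPM. Of 8 leukocyte markers 5 were in the table, with sums of 2.45 to 4.97 CPM untreated and 3.00 to 5.84 CPM treated. CD68 was the sole leukocyte marker above a mean of 1 CPM, and CD14 reached at most 0.251 CPM. The summed level of 6 epithelial markers was 3.02 to 7.08 CPM untreated and 4.65 to 14.0 CPM treated, and that of 4 endothelial markers was 2.17 to 4.91 CPM untreated and 5.47 to 12.4 CPM treated. The hepatocyte and endothelial sums were higher in every treated than in every untreated library, as C1S was, and their part in the results was not tested. In such bulk libraries, fewer cells of a type and less RNA per cell cannot be told apart.

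Of the 9 members, 6 had promoter entries in RefSeq (GRCh38.p14), in 11 windows of 300 bases from 250 before to 50 after a gene start. C1S, C3 and SERPING1 had no entry in the set used, so their promoters were not searched. The 3 sequences shown are the 250 bases before the start of C1R, whose RNA rose in all 3 lines, of CFB, whose level differed between treated lines, and of CD59, whose RNA fell in the MUT line. C1R is at chr12:7092446-7092695 (minus strand), CFB at chr6:31945845-31946094 (plus strand) and CD59 at chr11:33736480-33736729 (minus strand). Capitals mark matches to motifs that were searched on both strands, namely the GAS motif of activated STAT factors, written TTCNNNGAA, the ISRE motif of interferon-responsive promoters, the NF-kB motif and the TATA box, searched as the letters TATAAA.
C1R: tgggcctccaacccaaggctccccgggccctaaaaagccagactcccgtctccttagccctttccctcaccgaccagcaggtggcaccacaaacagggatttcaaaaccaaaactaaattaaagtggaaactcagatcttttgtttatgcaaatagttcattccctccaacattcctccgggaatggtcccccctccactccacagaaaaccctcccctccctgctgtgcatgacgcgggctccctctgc
CFB: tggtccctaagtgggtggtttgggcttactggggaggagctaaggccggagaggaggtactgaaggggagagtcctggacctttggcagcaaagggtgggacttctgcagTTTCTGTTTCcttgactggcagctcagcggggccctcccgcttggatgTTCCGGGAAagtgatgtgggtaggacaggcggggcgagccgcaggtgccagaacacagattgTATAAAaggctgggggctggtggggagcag
CD59: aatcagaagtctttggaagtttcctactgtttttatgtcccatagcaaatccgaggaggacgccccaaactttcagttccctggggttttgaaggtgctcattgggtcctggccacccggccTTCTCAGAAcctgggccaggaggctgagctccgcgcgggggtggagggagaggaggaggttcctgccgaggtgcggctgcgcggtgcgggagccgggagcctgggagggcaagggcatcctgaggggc
The CFB sequence held an ISRE match on the minus strand at -140, a GAS match at -92 and a TATA match at -30 from the start. GAS reads as its own reverse complement, so the match on both strands is 1 site. The CD59 sequence held a GAS match at -128 and the C1R sequence held none of the 4 motifs, while the other C1R window had a GAS match at -86. CD59 had further windows, of which window 2 held the same GAS site at -184, and windows 3 and 4 held no match. Of all 35116 RefSeq windows of this length, 7.66% held a GAS match, 3.57% an ISRE match, 0.558% an NF-kB match and 11.5% a TATA match. The number of CG pairs in the 300 bases was 10 in this C1R window, 7 in the CFB window and 18 in this CD59 window. The other C1R window had 8, and CD59 windows 2, 3 and 4 had 22, 1 and 1. CD46 had 25, CD55 had 19 and CFI had 2, beside a median of 14 over all windows (quartiles 4 and 28). These matches are letters in a sequence and show no binding.

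C1S encodes the serine protease C1s and lies on chromosome 12 from 6988259 to 7071033 on the plus strand (hg38). Untreated WT cells had the lowest C1S level, with 0.883, 1.38 and 1.21 CPM, which rest on 18, 26 and 22 counts. Untreated MUT cells had 2.41, 2.14 and 2.86 CPM, and untreated EV cells had 3.62, 4.97 and 5.10 CPM. The libraries of these 3 untreated groups did not overlap. After cytarabine the level was 19.6, 13.4 and 17.5 CPM in EV, 15.3, 19.7 and 15.9 CPM in WT and 11.0, 11.3 and 10.5 CPM in MUT. Every treated library thus stood above every untreated one, the treated EV and WT libraries overlapped, and the treated MUT libraries stood below both.

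As a fold of group means, C1S was 14.7-fold higher with cytarabine in WT, 4.43-fold higher in MUT and 3.69-fold higher in EV. The log2 fold changes were 3.87 (SE 0.199) in WT, 2.14 (SE 0.182) in MUT and 1.89 (SE 0.168) in EV. EV and WT cells differed before treatment. Untreated EV cells had 3.95 times the C1S level of untreated WT cells, whereas with cytarabine the ratio of EV to WT was 0.992. From the lowest to the highest mean, the order was untreated WT at 1.16 ± 0.251 CPM (SD, n = 3), untreated MUT at 2.47 ± 0.362, untreated EV at 4.56 ± 0.818, treated MUT at 10.9 ± 0.385, treated EV at 16.8 ± 3.18 and treated WT at 16.9 ± 2.42. Of neighbours in this order, only treated EV and treated WT overlapped. Under all alternatives the log2 fold change of C1S stayed between 3.70 and 4.02 in WT, between 2.02 and 2.22 in MUT and between 1.74 and 2.02 in EV.

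**Figure D1:**
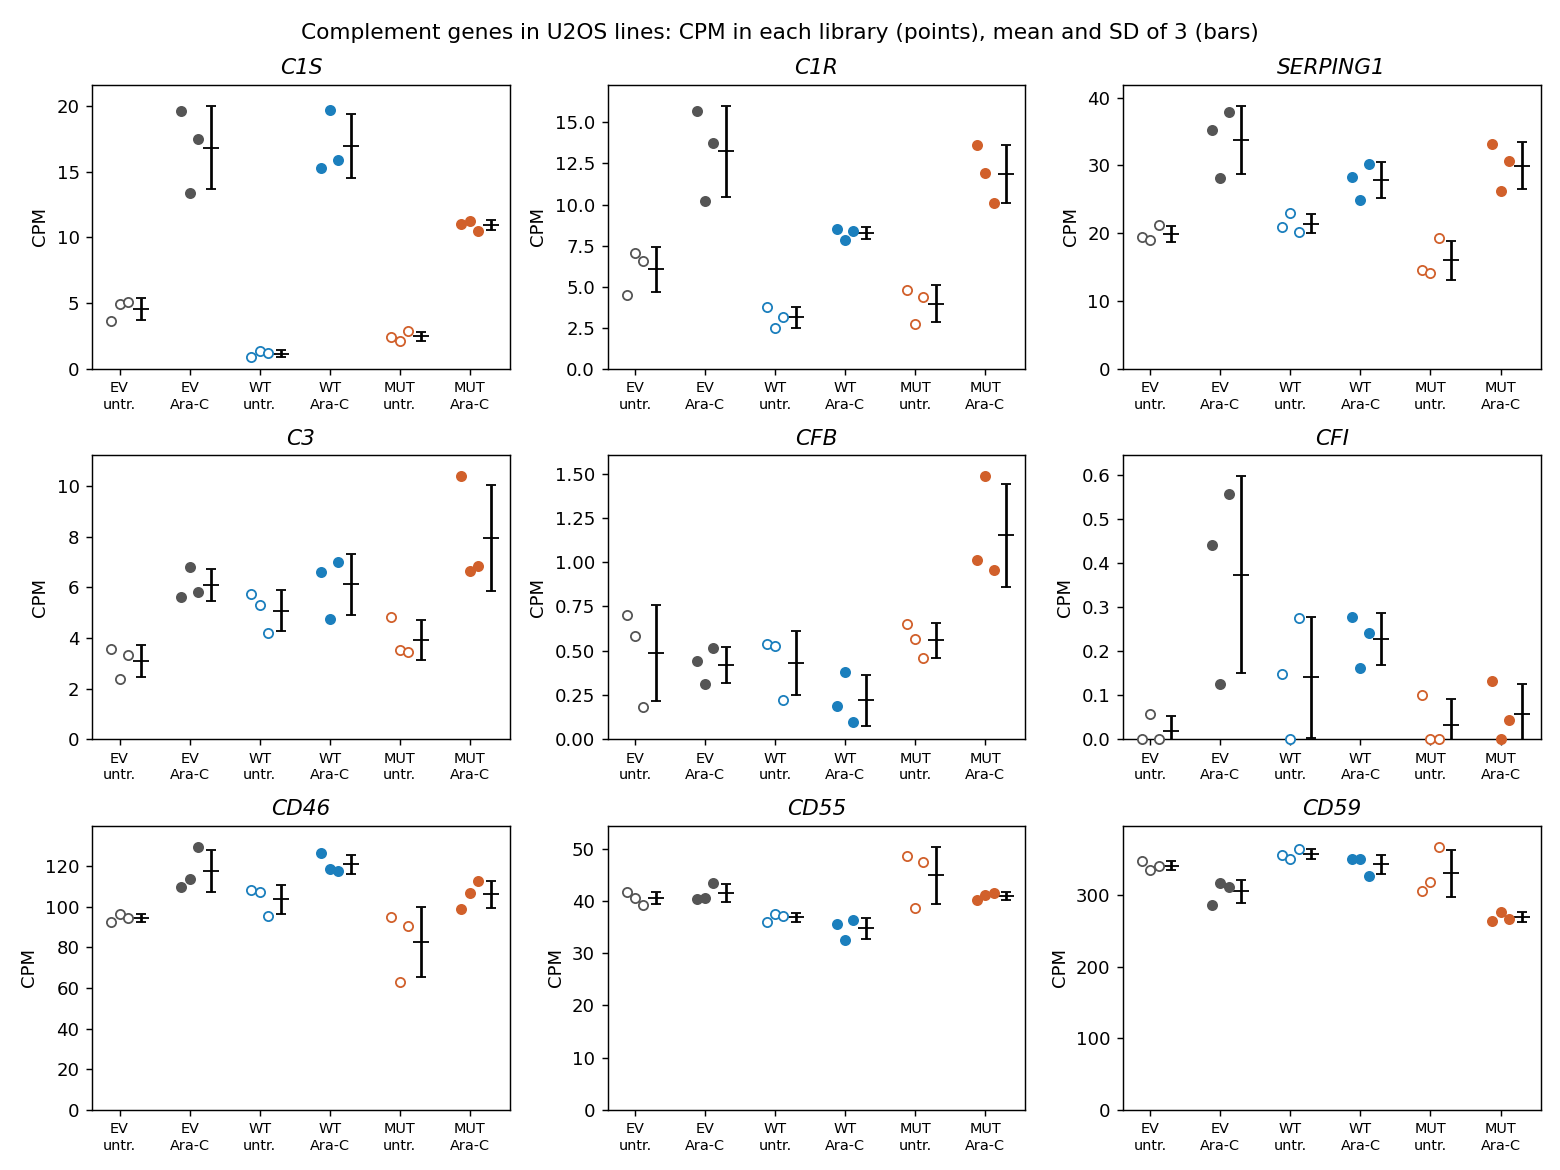
Each panel shows 1 member, with CPM on a linear axis from 0 against the 6 groups. Points are libraries (open untreated, filled treated with Ara-C) and bars are the mean and SD of 3. C1S lay at 0.883 to 1.38 CPM in untreated WT and at 15.3 to 19.7 CPM in treated WT, while CD55 and CD59 moved little.

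C1R encodes C1r, the protease that activates C1s, and lies on chromosome 12 from 7080199 to 7092608 on the minus strand. Its level was 4.50, 7.07 and 6.58 CPM in untreated and 15.7, 10.2 and 13.8 CPM in treated EV. WT cells had 3.78, 2.49 and 3.13 CPM untreated and 8.54, 7.84 and 8.41 CPM treated. MUT cells had 4.81, 2.70 and 4.40 CPM untreated and 13.6, 11.9 and 10.1 CPM treated. In each line every treated library was above every untreated one. C1R rose on the log2 scale by 1.13 (SE 0.206, adjusted p = 1.4e-04) in EV, 1.39 (SE 0.221, adjusted p = 3.2e-05) in WT and 1.57 (SE 0.213, adjusted p = 4.2e-06) in MUT in edgeR's quasi-likelihood test with Benjamini-Hochberg adjustment over all 18226 tested genes. The WT response minus the EV response of C1R was 0.26 on the log2 scale, with a 95% interval from -0.37 to 0.89. That interval is wide enough to hold both no difference and a sizeable one.

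Untreated, C1R was lower in WT than in EV, with a log2 difference of -0.94 (SE 0.228, edgeR adjusted p = 0.00924). Without untreated EV replicate 2 or untreated WT replicate 2 the adjusted p was 0.0565 or 0.0575. Treated, the difference between WT and EV was -0.68 (edgeR adjusted p = 0.0226), and leaving out treated EV replicate 1 or 3 or any 1 of the 3 treated WT replicates gave adjusted p-values from 0.0573 to 0.103. C1R shares 672 of its 5803 exonic bases with C1RL, a neighbouring protease-like gene, so reads there could have been counted for either.

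Levels of C1S and C1R can be set against each other per kilobase (kb) of exon. The ratio of C1S to C1R was 0.563, 0.491 and 0.543 in untreated EV and 0.874, 0.913 and 0.889 in treated EV. In WT it was 0.164, 0.387 and 0.270 untreated and 1.25, 1.76 and 1.32 treated. In MUT it was 0.350, 0.553 and 0.454 untreated and 0.566, 0.660 and 0.730 treated. Treated WT libraries were the only ones in which C1S exceeded C1R per kb. This depends on the exon lengths used, 8.295 kb for C1S and 5.803 kb for C1R. In CPM without that division, C1S was also above C1R in treated EV (19.6, 13.4 and 17.5 against 15.7, 10.2 and 13.8). The same held for treated MUT replicate 3 (10.5 against 10.1). C1S was also chosen by its WT response, so the WT ratio is a description.

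SERPING1 encodes C1 inhibitor, the serpin that inactivates C1r and C1s, and lies on chromosome 11 from 57597387 to 57614854 on the plus strand. EV cells had 19.5, 19.0 and 21.2 CPM untreated and 35.3, 28.2 and 37.8 CPM treated. WT cells had 21.0, 23.0 and 20.2 CPM untreated and 28.3, 25.0 and 30.2 CPM treated. MUT cells had 14.6, 14.1 and 19.2 CPM untreated and 33.1, 26.2 and 30.6 CPM treated. All treated libraries were above the untreated ones of their line. By edgeR's quasi-likelihood test SERPING1 rose by 0.77 (SE 0.126, adjusted p = 5.0e-05) in EV, 0.38 (SE 0.125, adjusted p = 0.0173) in WT and 0.91 (SE 0.128, adjusted p = 6.6e-06) in MUT on the log2 scale. The WT call was lost with the authors' library factors (adjusted p = 0.0523) and without treated WT replicate 3 (0.0784), untreated WT replicate 1 (0.0527) or untreated WT replicate 3 (0.0658). The MUT response minus the WT response was 0.53 on the log2 scale (95% interval 0.15 to 0.90), which did not pass adjustment over all genes (edgeR adjusted p = 0.151).

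C3, the component that all complement routes split, lies on chromosome 19 from 6677704 to 6730563 on the minus strand. Its level was 3.56, 2.40 and 3.32 CPM in untreated and 5.62, 6.80 and 5.82 CPM in treated EV. In MUT it was 4.81, 3.52 and 3.43 CPM untreated and 10.4, 6.66 and 6.84 CPM treated. C3 rose in EV by 0.97 (SE 0.221, edgeR adjusted p = 0.00121) and in MUT by 1.01 (SE 0.211, edgeR adjusted p = 4.4e-04) on the log2 scale, without overlap. In WT the values were 5.74, 5.29 and 4.18 CPM untreated and 6.59, 4.76 and 7.01 CPM treated, which overlapped (log2 fold change 0.27, SE 0.209, edgeR adjusted p = 0.295). The MUT response minus the WT response was 0.74 (95% interval 0.12 to 1.36, edgeR adjusted p = 0.231), and the WT response minus the EV response was -0.70 (95% interval -1.34 to -0.06, edgeR adjusted p = 0.462). Untreated C3 was higher in WT than in EV by 0.71 (edgeR adjusted p = 0.0438). This call was lost without any 1 of the 3 untreated EV replicates, untreated WT replicate 1 or 2, treated EV replicate 3 or treated WT replicate 1 (adjusted p from 0.0544 to 0.194), and at 0.0538 with the authors' factors or with no filter on low counts.

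CFB encodes factor B, the protease of the alternative pathway, and lies on chromosome 6 from 31945650 to 31952085 on the plus strand. Its counts were low, from 2 to 31 per library. EV cells had 0.701, 0.584 and 0.184 CPM untreated and 0.440, 0.312 and 0.513 CPM treated. WT cells had 0.539, 0.529 and 0.220 CPM untreated and 0.186, 0.378 and 0.0967 CPM treated. MUT cells had 0.652, 0.566 and 0.457 CPM untreated and 1.01, 1.48 and 0.959 CPM treated. The 3 treated MUT libraries stood above all others. The filter on low counts asked for 0.519 CPM, before scaling, in any 3 libraries. CFB reached it in 3 libraries of treated MUT, 2 of untreated EV, 1 of treated EV, 1 of untreated MUT and 0 of either WT group. Treated CFB was 2.38 higher in MUT than in WT on the log2 scale (SE 0.514, edgeR adjusted p = 0.00268). The cytarabine response itself did not pass in EV (-0.20, SE 0.516), WT (-0.98, SE 0.564) or MUT (1.03, SE 0.461, edgeR adjusted p = 0.0646). Without untreated EV replicate 3 the MUT response reached an adjusted p of 0.0473.

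Against treated EV, treated MUT had a CFB difference of 1.41 (SE 0.469, edgeR adjusted p = 0.0512). It passed with the authors' factors, with only the groups compared, with DESeq2 and without untreated EV replicate 3, untreated MUT replicate 2 or 3, treated WT replicate 2 or untreated WT replicate 3 (adjusted p from 0.0386 to 0.0497). CFI, the plasma protease that inactivates C3b with the help of cofactors, lies on chromosome 4 from 109740694 to 109802180 on the minus strand. It was too low to test. Treated EV had 9, 2 and 13 counts, treated WT had 6, 3 and 5, treated MUT had 3, 0 and 1, untreated EV had 0, 1 and 0, untreated WT had 3, 0 and 5 and untreated MUT had 2, 0 and 0. Treated EV held the highest counts. A count of 0 allows up to 3 counts in a library, so no fold is given.

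The membrane regulators were the most abundant members per kb of exon in untreated cells. CD46 is a cofactor for the cleavage of C3b, CD55 speeds the decay of the C3-splitting enzymes, and CD59 blocks the membrane attack complex. Per kb of exon, untreated EV cells had 32.3 CPM of CD59, 6.09 of CD46 and 3.96 of CD55, against 2.75 of SERPING1, 1.04 of C1R, 0.550 of C1S, 0.267 of C3, 0.0922 of CFB and 0.00366 of CFI. RNA for the surface regulators thus exceeded that for the secreted members per kb in untreated EV cells. In treated cells the mean of SERPING1 was above that of CD55 in every line, at 4.67 against 4.05 CPM per kb for EV and 3.85 against 3.40 for WT, and the libraries of both genes overlapped.

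CD46 (chromosome 1, 207752057 to 207795514, plus strand) had 92.5, 96.3 and 94.4 CPM in untreated and 110, 114 and 130 CPM in treated EV. WT cells had 108, 107 and 95.5 CPM untreated and 127, 119 and 118 CPM treated. MUT cells had 94.8, 63.1 and 90.6 CPM untreated and 99.1, 107 and 113 CPM treated. No untreated library reached a treated library of its line, but untreated MUT replicate 2 stood far below the rest. CD46 rose by 0.32 (SE 0.109, edgeR adjusted p = 0.0212) in EV and by 0.36 (SE 0.109, edgeR adjusted p = 0.00946) in MUT on the log2 scale. The value in WT was 0.22 (SE 0.109, edgeR adjusted p = 0.0985). Without untreated MUT replicate 2 the MUT value was 0.16 (adjusted p = 0.0891) and the WT value of 0.22 passed (adjusted p = 0.0102). Fitted with only its own groups, the MUT call was also lost (adjusted p = 0.0774) and the WT response passed (adjusted p = 4.9e-04). The EV call was lost with the authors' factors (0.24, adjusted p = 0.0735) and without treated EV replicate 3 (0.24, 0.112), untreated EV replicate 1 (0.30, 0.0634) or untreated EV replicate 3 (0.32, 0.0517).

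CD55 (chromosome 1, 207321376 to 207386805, plus strand) had 41.8, 40.7 and 39.4 CPM in untreated and 40.3, 40.6 and 43.5 CPM in treated EV. WT cells had 36.0, 37.5 and 37.2 CPM untreated and 35.6, 32.5 and 36.4 CPM treated. MUT cells had 48.6, 38.7 and 47.6 CPM untreated and 40.2, 41.3 and 41.5 CPM treated. Treated and untreated libraries overlapped in every line, with changes on the log2 scale of 0.03 (SE 0.0780) for EV, -0.08 (SE 0.0783) for WT and -0.13 (SE 0.0771) for MUT and no call by edgeR. The EV value was -0.043 with the authors' factors. Without untreated MUT replicate 2 the MUT value was -0.27 (edgeR adjusted p = 0.00179), and with the authors' factors it was -0.22 (adjusted p = 0.0248).

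CD59 (chromosome 11, 33703010 to 33736492, minus strand) had 348, 335 and 340 CPM in untreated and 286, 317 and 312 CPM in treated EV. WT cells had 357, 351 and 365 CPM untreated and 351, 351 and 327 CPM treated. MUT cells had 306, 318 and 367 CPM untreated and 264, 277 and 267 CPM treated. The groups overlapped in WT only. CD59 fell by 0.29 on the log2 scale in MUT (SE 0.0678, edgeR adjusted p = 0.00107). The values were -0.16 in EV (SE 0.0678, edgeR adjusted p = 0.0549) and -0.06 in WT (SE 0.0676, edgeR adjusted p = 0.482). The EV value passed with the authors' factors, with only its own groups, with DESeq2 and without treated EV replicate 2 or any 1 of the 3 untreated MUT replicates (adjusted p from 0.00973 to 0.0469).

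**Figure D2:**
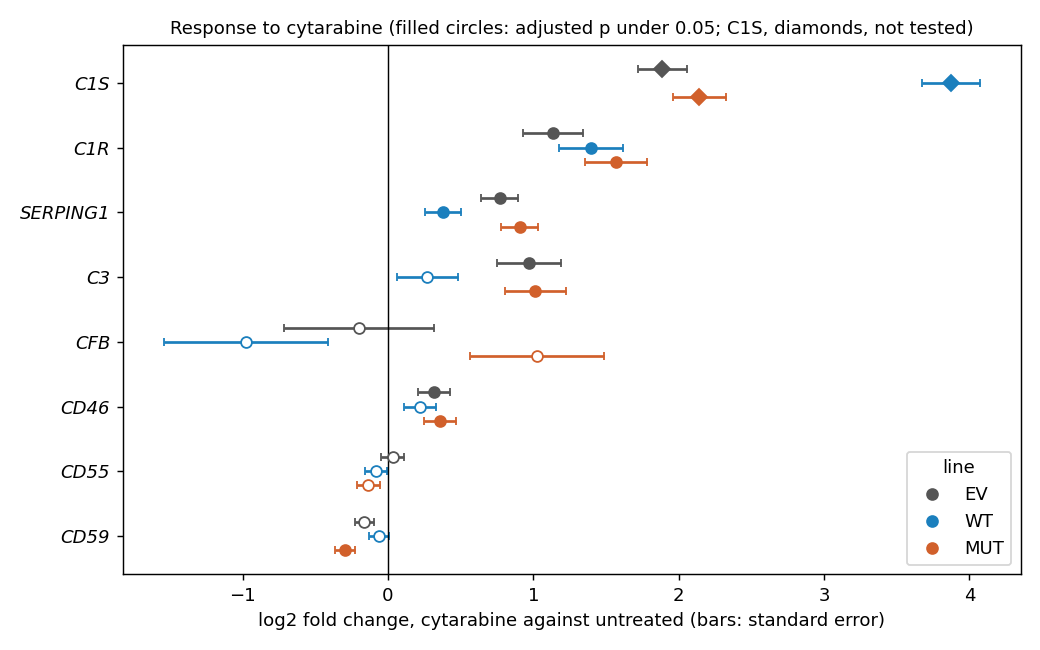
Log2 fold change with cytarabine (horizontal axis, bars are the standard error) for the 8 members that passed the filter on low counts, in EV, WT and MUT. Filled circles passed an adjusted p of 0.05 and open circles did not. For C1S, drawn as diamonds, no test result is given. C1R was higher in all 3 lines by 1.13 to 1.57, and CFB had the widest errors.

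Counted together without C1S, 8 members were listed and 7 tested. In EV, 4 members (C1R, SERPING1, C3 and CD46) rose and 0 fell, where 26.1% of all tested genes rose and 22.9% fell. In WT, 2 members (C1R and SERPING1) rose and 0 fell, where 26.3% of genes rose and 22.7% fell. In MUT, 4 members (C1R, SERPING1, C3 and CD46) rose and CD59 fell, where 30.4% of genes rose and 25.9% fell. The balance of rises and falls over all genes depended on the scaling. Rises made up 53.2% of the called EV genes with TMM factors and 45.2% with the authors' library factors. The same shares were 53.6% and 46.8% for WT, and 54.0% and 46.6% for MUT. With so few members, these shares are not set apart from the background. Abundance moves with the direction of the response. Genes with a mean log2 CPM under 4, such as C1S, C1R, C3 and CFB, rose in 31.5% of cases in EV, 30.0% in WT and 35.3% in MUT and fell in 6.41%, 8.29% and 10.4%. Genes at or above 4 rose in 20.7%, 22.5% and 25.5% and fell in 39.7%, 37.4% and 41.5%.

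The 7 tested members besides C1S were compared for a response that differed between lines with edgeR's quasi-likelihood test. WT against EV gave 0 of 7 (2 at an unadjusted p under 0.05, 0 by DESeq2), where 0.285% of all genes passed. MUT against EV gave 0 of 7 (0 unadjusted, 0 by DESeq2), where 0.214% passed. MUT against WT gave 0 of 7 (4 unadjusted, 0 by DESeq2), where 1.00% passed. Those 4 were SERPING1, C3, CFB and CD59. CD59 passed without untreated MUT replicate 1 (-0.33, edgeR adjusted p = 0.0336). For C1S the differences in log2 response, as a description, were 1.99 for WT minus EV, 0.26 for MUT minus EV and -1.73 for MUT minus WT. Each of these comparisons shares libraries with the others.

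Between untreated lines, 2 of 7 members differed for WT against EV (C1R lower, C3 higher), where 11.7% of all genes differed. For MUT against EV it was 0 of 7 by edgeR, where 19.9% of genes differed. In that comparison edgeR gave 2 at an unadjusted p under 0.05 and DESeq2 called 0. Single members passed without 1 library, namely C1R without untreated EV replicate 1 (-0.77, adjusted p = 0.0316), CD55 without untreated MUT replicate 2 (0.27, 0.00568) and SERPING1 without untreated MUT replicate 3 (-0.44, 0.0218). For MUT against WT it was 3 of 7, where 21.2% of genes differed. CD55 was higher in MUT by 0.29 on the log2 scale (edgeR adjusted p = 0.0129), SERPING1 lower by -0.42 (edgeR adjusted p = 0.0263) and CD46 lower by -0.32 (edgeR adjusted p = 0.0423).

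All 3 of these calls depended on single libraries. The CD55 call was lost without untreated WT replicate 1 (adjusted p = 0.0528) and with only the untreated groups compared (0.151). The SERPING1 call was lost without untreated MUT replicate 1 (-0.31, 0.143) or 2 (-0.30, 0.126) or untreated WT replicate 1 (-0.44, 0.0560) or 2 (-0.33, 0.151), with the authors' factors (0.0546) and with only those groups (0.111). The CD46 value was -0.13 (adjusted p = 0.254) without untreated MUT replicate 2. It also missed the threshold without untreated WT replicate 1 or 2, any 1 of the 3 untreated EV or 3 treated WT replicates, or treated MUT replicate 2 (adjusted p from 0.0516 to 0.169), or with other size factors, no filter or only those groups (0.0507 to 0.226).

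Between treated lines, 2 of 7 members differed for WT against EV, where 16.5% of genes differed. These were C1R and CD55, which was lower in WT by -0.25 (edgeR adjusted p = 0.0317). The CD55 call was lost without treated EV replicate 2 or 3 or treated WT replicate 1 or 2 (adjusted p from 0.0503 to 0.154) and with no filter on low counts (0.0807). MUT against EV gave 0 of 7 by edgeR (2 at an unadjusted p under 0.05, 2 by DESeq2), where 14.0% of genes differed. The CD59 difference in this comparison was -0.18 (edgeR adjusted p = 0.0859), which passed with DESeq2 and without any 1 of the 3 untreated MUT replicates (adjusted p from 0.00876 to 0.0469). MUT against WT gave 3 of 7, where 19.8% of genes differed. CFB was higher as described, CD59 was lower by -0.35 (SE 0.0678, edgeR adjusted p = 0.00111) and CD55 was higher by 0.23 (edgeR adjusted p = 0.0395). The CD55 call was lost without any 1 of the 6 treated libraries of these lines, untreated EV replicate 2 or untreated WT replicate 3 (adjusted p from 0.0503 to 0.173) and with no filter (0.0861). CD59 kept its call under every alternative tried. C1R was higher in treated MUT than in treated WT by 0.52 without overlap (edgeR adjusted p = 0.0712). It passed with only the groups compared (0.00513) and without untreated MUT replicate 2 (0.0335). CD46 was lower by -0.19 (edgeR adjusted p = 0.242) and passed in the same settings (0.0136 and 0.0485).

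Other complement genes were taken from a list of 54, of which 34 were in the table and 25 could be tested. In EV 11 rose and 3 fell, in WT 11 rose and 1 fell, and in MUT 14 rose and 2 fell. Over all tested genes 26.1%, 26.3% and 30.4% rose in these lines and 22.9%, 22.7% and 25.9% fell, and of those with a mean log2 CPM under 4, 31.5%, 30.0% and 35.3% rose and 6.41%, 8.29% and 10.4% fell. The median log2 fold change of the 25 was 0.72 in EV, 0.37 in WT and 0.90 in MUT, beside 0.05, 0.03 and 0.05 over all genes. Over all tested genes with a mean log2 CPM under 4 it was 0.37 in EV, 0.26 in WT and 0.35 in MUT. Of the 25, 20 had a mean log2 CPM under 4, the range in which rises were more common than falls across the table. C1QA, C1QB, C1QC, MBL2, C6 and C9 were not listed in the table used here, and C2, MASP1 and VTN were too low to test.

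Among receptors, ITGAX, the alpha chain of complement receptor 4, had 1.34, 1.29 and 1.41 CPM in untreated and 7.63, 7.18 and 8.55 CPM in treated EV. It rose in EV, WT and MUT by 2.53, 2.28 and 2.98 on the log2 scale (edgeR adjusted p at most 3.6e-08). C3AR1, the receptor for the C3a fragment, rose by 1.27, 1.27 and 2.84. Its level in untreated MUT was 0.0501, 0.314 and 0.171 CPM, below all libraries of the other groups, and 1.23, 1.29 and 1.26 CPM after treatment. The MUT value rests on 1, 5 and 3 untreated counts.

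Among soluble factors, CFD, the protease that activates factor B, rose by 1.02, 0.80 and 0.66. C4A rose in MUT by 2.15 (edgeR adjusted p = 3.7e-04), but C4A is nearly identical to C4B and reads could have been split between them. CSMD3, a large membrane protein with complement control domains, rose by 1.64, 1.83 and 2.73. C1QBP, a mostly mitochondrial protein that binds C1q, fell by 0.91, 0.82 and 1.12. For CFD, C3AR1, CSMD3 and C1QBP the edgeR adjusted p was at most 9.0e-04 in each line. SUSD4, a membrane protein with complement control domains, fell by 0.51 in EV (edgeR adjusted p = 0.0125) and by 0.40 in MUT (edgeR adjusted p = 0.0411), and the treated and untreated MUT libraries overlapped. In WT SUSD4 had 6.28, 6.03 and 6.49 CPM untreated and 7.33, 7.67 and 7.78 CPM treated, without overlap and without a call (0.28, SE 0.156, edgeR adjusted p = 0.150). CSMD1, of the same family as CSMD3, fell by 0.27 in EV (edgeR adjusted p = 0.0188) and rose by 0.23 in MUT (edgeR adjusted p = 0.0406), where treated and untreated libraries overlapped. No gene of this list passed edgeR's test for a response that differed between lines. At an unadjusted p under 0.05 there were 3 for WT minus EV, 3 for MUT minus EV and 9 for MUT minus WT, and DESeq2 called 0, 2 (CSMD1 and CSMD3) and 1 (CSMD3).

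**Figure D3:**
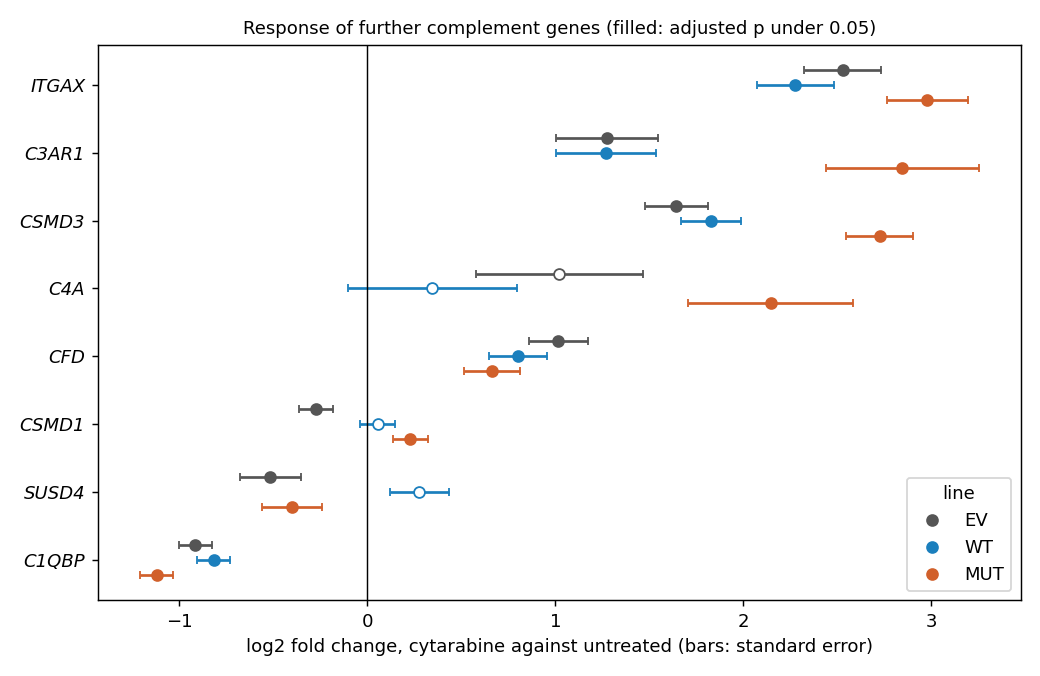
Log2 fold change with cytarabine (bars are the standard error) for the genes of the wider complement list that are named in the text, in the 3 lines, filled where the adjusted p was under 0.05. ITGAX, CSMD3 and C3AR1 lay above 1 in all 3 lines and C1QBP lay below 0.

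Transcription factors and cytokine signalling genes that act upstream of complement genes in other settings were taken as a list of 30, of which 25 were tested. In EV 5 rose and 4 fell, in WT 6 rose and 3 fell, and in MUT 4 rose and 4 fell. Over all tested genes 26.1%, 26.3% and 30.4% rose in the same lines and 22.9%, 22.7% and 25.9% fell. IL1R1, a receptor for interleukin 1, rose by 1.11, 1.09 and 1.20 in EV, WT and MUT on the log2 scale. STAT2, a mediator of the type I interferon signal, rose by 0.97, 0.84 and 0.97, and IFNAR2, a subunit of the interferon receptor, rose by 0.46, 0.68 and 0.52. The NF-kB inhibitor gene NFKBIA fell by 1.10, 1.12 and 1.27, the subunit gene NFKB1 fell by 1.05, 0.81 and 0.99, and RELA fell by 0.31, 0.25 and 0.20. For these 6 genes the edgeR adjusted p was at most 0.0186 in each line, beside a median over the list of 0.02 (EV), 0.09 (WT) and 0.10 (MUT) and of 0.05, 0.03 and 0.05 over all genes. IRF1 fell in EV by 0.31 and in MUT by 0.23 (edgeR adjusted p = 0.0440, with overlapping MUT libraries). CEBPA rose in EV by 0.57, IL6R and STAT3 rose in WT by 0.36 and 0.27, and OSMR rose in MUT by 0.30. No response differed between lines by edgeR (3, 1 and 2 at an unadjusted p under 0.05 for WT minus EV, MUT minus EV and MUT minus WT), and DESeq2 called 0, 0 and 1 (IL6R).

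The genes whose levels were most like that of C1S were ranked by Pearson's r of log2 CPM over the 18 libraries, among 13675 genes. These libraries share the treatment contrast, so r is a description. TMOD1 (0.972), DPYSL4 (0.970), PGF (0.965), PROCR (0.963) and EPS8L2 (0.961) ranked highest. Among the members r was 0.900 for C1R, 0.757 for SERPING1, 0.577 for CD46, 0.457 for C3, -0.073 for CFB, -0.108 for CD55 and -0.488 for CD59. TMOD1, which caps actin filaments, had 6.23, 6.88 and 5.28 CPM in untreated WT and 15.9, 15.7 and 17.2 CPM in treated WT. PGF, placental growth factor, had 4.95, 5.93 and 5.50 CPM in untreated WT and 47.6, 41.3 and 48.9 CPM in treated WT. Both genes were lowest in untreated WT, as C1S was. They were picked for likeness to C1S over these same libraries, so the shared low is no separate finding.

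C1S lies beside C1R in a gene-dense stretch of chromosome 12. Of its 23 annotated GENCODE transcripts, 1 starts far upstream, so the interval in the table overlaps LPCAT3 and EMG1, while the main (MANE) transcript starts at 7060718. C1S shares 0 of its 8295 exonic bases with LPCAT3, EMG1, C1R or C1RL. Of the genes within 50 kb of the listed intervals of C1S or C1R, 12 besides C1S were tested, with C1R among them. Because the C1S interval reaches far upstream, some start farther from the main C1S start. ATN1 starts 136 kb before it and EMG1 and PHB2 90 kb before it. In EV and in WT 5 rose and 2 fell, and in MUT 5 rose and 3 fell, beside 26.1%, 26.3% and 30.4% of all tested genes that rose in EV, WT and MUT and 22.9%, 22.7% and 25.9% that fell. Among these, CLSTN3, which encodes a membrane protein of the calsyntenin family, rose by 1.53, 1.32 and 1.75 in EV, WT and MUT on the log2 scale. C1RL rose by 1.01, 0.55 and 0.90 and LPCAT3, a phospholipid-remodelling enzyme, by 0.46, 0.59 and 0.45. EMG1, a ribosome biogenesis factor, fell by 0.97, 0.73 and 0.97, and PHB2, a mitochondrial prohibitin, fell by 0.76, 0.70 and 0.92. For these 5 genes the edgeR adjusted p was at most 1.8e-04 in each line. None of the 12 passed edgeR's test for a response that differed between lines, with the smallest adjusted p at 0.0895 for CLSTN3 in MUT minus WT.

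**Figure D4:**
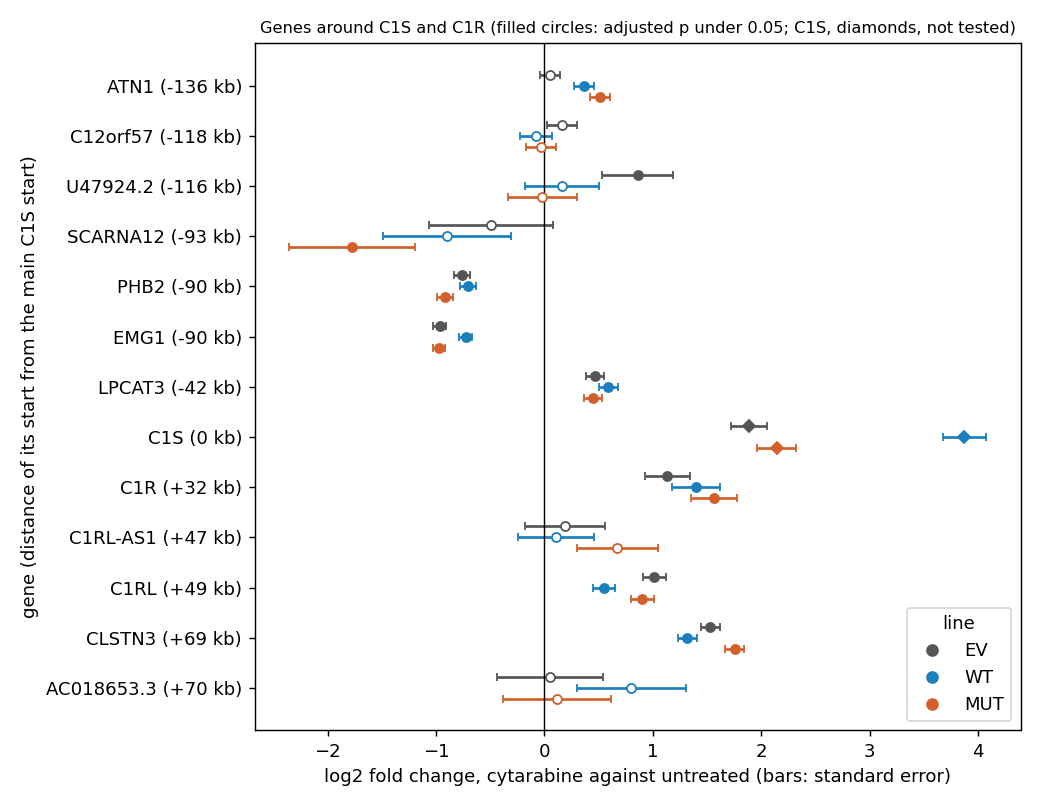
Log2 fold change with cytarabine (bars are the standard error) for the tested genes around C1S and C1R, in order of distance of their start from the main C1S start. Filled circles passed an adjusted p of 0.05, and for C1S, drawn as diamonds, no test result is given. C1S had 3.87 in WT, while EMG1 and PHB2 lay below 0.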

How the data were processed

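RNA of 18 libraries was sequenced. The submitters' processing notes name CASAVA, the aligner STAR 2.6.1d and the build hg38, and the counting tool, annotation and strand handling are not given in the sources used here. The deposited gene table gives the authors' estimated counts, 70.4% of them whole numbers. They also deposited a normalized signal for 19591 genes, equal to 1 plus a library factor times the count within a relative deviation of 7.36e-06. The table's positions overlapped those of GENCODE v44 for 99.99% of 19417 matched symbols. Groups were taken from the sample titles.

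Estimated counts were rounded and fitted with edgeR 4.0.16 in R 4.3.3 (limma 3.58.1), using TMM factors, filterByExpr (18226 genes) and 1 quasi-likelihood fit of 6 groups with 12 residual degrees of freedom. Benjamini-Hochberg adjustment covered every gene in the fit, with a threshold of 0.05, and the standard error is the absolute log2 fold change over the square root of F. CPM used TMM-scaled library sizes, and log2 CPM a prior count of 2. The common biological coefficient of variation was 0.104. Replicates differed by more than sampling noise (chi-square per degree of freedom from 2.45). The script was tested on simulated data.

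The members and lists were chosen with earlier results of these data known. Named genes were all members, DNMT3A and up to 5 risers and 5 fallers per list and line whose log2 CPM averaged 0 or more. The 5 genes most like C1S and tested genes within 50 kb of the listed intervals of C1S or C1R were added. One small-RNA feature whose interval spans most of the chromosome was left out, and 1 gene that the rule would name is not reported here. Alternatives were DESeq2 1.42.0, RLE factors, the authors' factors, no filter, a replicate block, only the groups compared and leaving out each library.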

Additional observations from a re-analysis of the deposited data

How the results depend on the processing

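Replicate numbers were not treated as pairs in the main fit. In 0 of 15 pairs of groups were all 3 correlations of same-numbered libraries over 0.1 (range -0.176 to 0.352). That rule cannot exclude pairing of single replicates. Between untreated and treated MUT the correlations were -0.036, 0.062 and 0.326 for replicates 1, 2 and 3. Across lines they were 0.118, -0.046 and 0.352 between treated EV and untreated MUT. Between treated EV and treated MUT they were 0.272, -0.026 and 0.305. With a replicate block, 4, 2 and 5 members passed for cytarabine in EV, WT and MUT, as without it. With the authors' factors 1 member passed for cytarabine in WT, 1 for WT against EV untreated, 1 for MUT against WT untreated and 1 for MUT against EV treated, and the CD55 response in EV was -0.043. With no filter 1 passed for WT against EV untreated and 1 treated. With only the groups compared 0 passed for MUT against WT untreated, 5 treated and 1 for MUT against EV treated, and 14 and 5 genes of the regulator list in WT and MUT. DESeq2 called 2 for MUT against EV treated. Leaving out 1 library gave 3 to 5 members in EV, 1 to 3 in WT and 5 to 6 in MUT, and 0 to 1 for the MUT minus WT difference of responses and 0 to 0 for the others. Untreated it gave 0 to 2 for WT against EV, 0 to 1 for MUT against EV and 0 to 4 for MUT against WT, and treated 0 to 3, 0 to 2 and 2 to 5. The wider list gave 11 to 15, 8 to 12 and 14 to 16, and the regulator list 7 to 10, 9 to 10 and 6 to 11. Leaving out 1 library turned the sign of 26 values, all of results that had not passed. As log2 values, their ranges for the responses were -0.58 to 0.14 for CFB and -0.0046 to 0.053 for CD55 in EV. For MUT minus WT they were -0.068 to 0.29 for C1R and -0.063 to 0.19 for CD46, and for MUT minus EV -0.19 to 0.20 for C3 and -0.16 to 0.11 for CD46. Untreated they were -0.26 to 0.0019 for CD46, -0.11 to 0.045 for CD59 and -0.20 to 0.53 for CFB for MUT against EV, and -0.57 to 0.16 for CFB for WT against EV. Treated they were -0.039 to 0.018 for CD55 for MUT against EV, and -0.093 to 0.16 for C3 and -0.0085 to 0.12 for CD46 for WT against EV. C1S moved by less than its standard error in all alternatives. Low counts limit CFB and CFI, and 3 libraries a group limit small differences.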
